A study of Mus musculus with 46 samples.

Results

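The mitochondrial ribosomal proteins described here are the products of 78 protein-coding mouse genes, taken by their symbols (Mrps or Mrpl, a number and at most 1 letter) from the 21974 protein-coding genes among 55487 gene identifiers. By symbol, 29 belong to the small subunit and 49 to the large subunit. RNA of liver and white adipose tissue (WAT, depot not named in the labels) was measured as polyA RNA in 46 libraries. The mice were wild-type C57BL/6 and all ate a high-fat diet for 21 weeks from 7 weeks of age. In each organ there were 6 libraries of females given PTP-r, 6 of females given vehicle, 6 of males given PTP-r and 5 of males given vehicle. The labels give no full name for PTP-r, a code name; the series title concerns a prohibitin-directed peptide of mixed chirality and its effects on obesity. It was injected under the skin at 1 mg/kg per day for 5 weeks from week 16 of the diet, and the vehicle was PBS. No lean or chow-fed group was analysed here, so every group shares the diet. Nothing in the labels ties each library to its own mouse, and p-values therefore reflect spread among libraries, which may be technical.

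Mitochondria carry ribosomes of their own, built of RNA that is transcribed from mitochondrial DNA and of proteins that are encoded in the nucleus and imported. These ribosomes make the few core subunits of the respiratory chain and of ATP synthase that mitochondrial DNA encodes, so their output has to be matched to respiratory subunits made in the cytosol. The small subunit reads the messenger RNA and the large subunit joins amino acids and holds the exit tunnel. Some members resemble bacterial ribosomal proteins and others exist only in mitochondria. Prohibitins, named in the title of the series, form ring complexes in the mitochondrial inner membrane. Symbols do not always follow the structure: the Mrps30 and Mrps18a proteins sit in the large subunit, and the Mrps36 protein is now known as a part of the oxoglutarate dehydrogenase complex.

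The 78 genes lie on 17 chromosomes. Transcription start sites of 33 members (42.3%) lay within 1000 bases of the start of a gene on the opposite strand, against 2371 (10.8%) of all protein-coding genes. Mrps11 and Mrpl46 face each other in this way, 1 from each subunit. Some other such neighbours also serve mitochondria. Mrpl36 faces Ndufs6 (a complex I subunit) and Mrps12 faces Sars2 (the mitochondrial seryl-tRNA synthetase). Mrpl43 faces Twnk (the mitochondrial DNA helicase) and Mrpl47 faces Ndufb5 (a complex I subunit). These were picked by function, and how many of the 33 members face a gene that serves mitochondria was not counted. Rab6a, Tcp1 and Hira are among the neighbours not picked. The counting used strand, so reads of such neighbours were kept apart. On the same strand, 12 members overlap another gene, and their values are uncertain where they are named below. They are Mrps6, Mrps18c, Mrps24, Mrps28, Mrps34, Mrpl3, Mrpl15, Mrpl21, Mrpl33, Mrpl46, Mrpl51 and Mrpl53.

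Promoters are given as a description, and whether their motifs relate to any difference below was not tested. RefSeq promoter windows (GRCm38.p6, from 250 bases before to 50 after a start) were found for 69 members, in 75 windows. Exact matches on either strand were sought to CCGGAAGT (an ETS family motif), GCGCATGCG (an NRF1 motif) and AAGATGGCG (a YY1 motif), which name factors known to drive mitochondrial genes. The ETS motif stood in 12 of 75 member windows (16%), against 3.89% of all 32851 windows. The NRF1 motif stood in 7 (9.33%), against 1.75%, and the YY1 motif in 8 (10.7%), against 1.40%. At least 1 of these motifs was present in 26 member windows (34.7%), against 6.69% of all windows. All windows together belong to 27025 genes, against 21974 protein-coding genes in the counts. The background is therefore not one of protein-coding genes alone, unlike the members. A match is a description of the letters and not a measured binding site. The 150 bases before the start of 3 members, 1 for each motif, are given 5′ to 3′ on the strand of the gene, with matches in capitals; overlapping matches form 1 run. They are Mrps22 (chr9:98601680-98601829, minus strand, ETS), Mrpl32 (chr13:14613038-14613187, minus strand, NRF1, with 3 matches) and Mrps11 (chr7:78782981-78783130, plus strand, YY1, on the opposite strand).
Mrps22: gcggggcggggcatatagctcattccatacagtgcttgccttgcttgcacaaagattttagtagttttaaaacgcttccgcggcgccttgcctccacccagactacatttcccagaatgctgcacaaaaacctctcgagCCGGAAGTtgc
Mrpl32: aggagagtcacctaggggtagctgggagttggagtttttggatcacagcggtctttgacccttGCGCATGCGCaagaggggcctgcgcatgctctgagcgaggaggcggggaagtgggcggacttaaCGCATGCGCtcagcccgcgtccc
Mrps11: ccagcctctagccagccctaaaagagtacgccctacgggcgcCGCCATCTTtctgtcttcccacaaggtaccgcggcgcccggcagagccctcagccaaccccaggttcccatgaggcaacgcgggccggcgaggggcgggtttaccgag

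Reads counted on genes numbered 20266425 to 57518893 in liver libraries and 20991069 to 32219751 in WAT libraries. Levels are CPM, read counts divided by library size on a common scale, with sizes adjusted within an organ unless both organs are compared. Marker levels and their sums are always on the scale of both organs together, so they are not on the scale of the member levels beside them. Of the 78 members, 77 passed the expression filter in each fit, 29 of the small and 48 of the large subunit. Mrpl53 did not pass: it had a count above 0 in 2 libraries, with a maximum of 2 reads, and it overlaps Gm42688 on the same strand. The defining markers of hepatocytes (Alb and 5 others) were above 0 in every liver library, and those of adipocytes (Adipoq, Plin1 and 4 others) in every WAT library. Libraries were screened for markers of skeletal muscle, pancreas and epididymis, and in WAT of brown adipocytes, and some libraries were high in them. In liver these were female PTP-r libraries 1 (pancreas) and 11 (skeletal muscle) and female vehicle library 12 (skeletal muscle). In WAT they were female PTP-r libraries 1, 4 and 5 (skeletal muscle or brown adipocyte), male vehicle library 3 (skeletal muscle), and, for epididymis, male PTP-r libraries 1 and 2 beside male vehicle library 9. Most counts are also given without these 10 libraries, a choice made after seeing the data. Other marker lists were not part of the screen. In male PTP-r WAT the highest library reached 59.99 CPM of T cell markers (group median 5.89). For mammary epithelium markers the highest there was 125.3 CPM (group median 7.52). Within a group, the members' coefficient of variation had a median between 6.01% and 6.65% in liver and between 6.43% and 11.5% in WAT, against medians between 12.6% and 20.2% over all genes tested. In bulk tissue, fewer cells of a type and less RNA per cell cannot be told apart.

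Transcript levels of the members spanned more than an order of magnitude. Over the 11 vehicle libraries of liver, the level per kilobase of exon, on the CPM scale, was highest for Mrpl12 at 80.7 ± 4.85 (SD, n = 11), Mrpl14 at 55.0 ± 4.50 and Mrpl2 at 45.4 ± 5.30. Mrpl12 forms the stalk that recruits translation factors, Mrpl14 lies on the face that meets the small subunit, and Mrpl2 lies at the peptidyl transferase centre. Mrpl33 at 1.39 ± 0.103, Mrps25 at 1.97 ± 0.201 and Mrpl19 at 2.94 ± 0.388 CPM per kilobase were lowest in liver. In WAT, Mrps21 at 37.3 ± 4.91, Mrpl54 at 35.3 ± 3.27 and Mrpl34 at 28.7 ± 4.32 CPM per kilobase were highest (n = 11). The spreads of Mrps21 and Mrpl54 overlapped, as did those of Mrpl34 and Mrpl12, the next in order at 28.5 ± 4.77. Mrpl47 at 1.68 ± 0.167, Mrps35 at 1.79 ± 0.360 and Mrpl33 at 1.86 ± 0.192 were lowest in WAT and lay within each other's spread. The proteins stand in the ribosome in equal numbers except for the stalk, whereas these transcripts did not stand at equal levels. The median level per kilobase was 12.8 in liver and 8.08 in WAT, and with the longest transcript as the length it was 16.99 and 11.03. The order depends on the length used. With the longest transcript, Mrpl12 at 93.9, Mrpl14 at 80.9 and Mrpl38 at 56.1 CPM per kilobase were highest in liver, and Mrps25 at 2.13, Mrpl19 at 3.21 and Mrpl33 at 3.71 were lowest. In WAT, Mrps21 at 56.5, Mrpl20 at 54.6 and Mrpl54 at 48.2 were then highest, and Mrpl19 at 2.06, Mrpl47 at 2.21 and Mrpl23 at 3.01 lowest, with Mrps35 at 3.34 and Mrpl33 at 4.98.

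**Figure D1:**
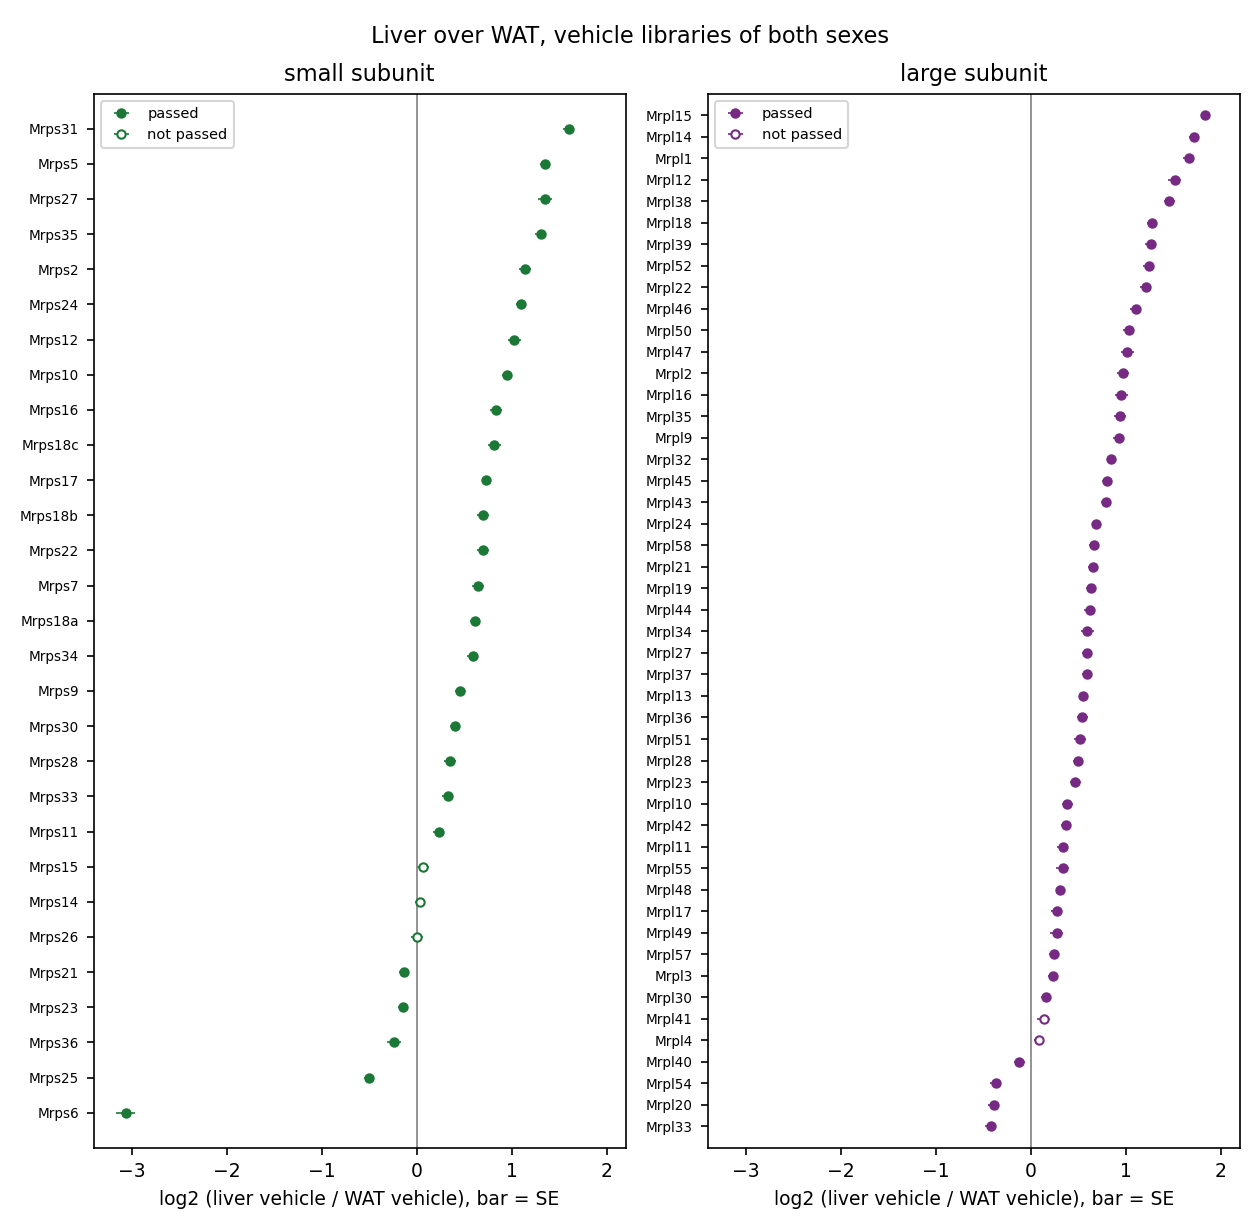
Log2 ratio of the liver vehicle level to the WAT vehicle level for each of 77 genes (x axis; points, estimates; bars, standard error; filled, adjusted p under 0.05; open, not passed), by subunit. Most genes lie to the right of 0, and Mrps6 lies far to the left at -3.06.

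Most members were higher in liver than in WAT. In the vehicle libraries of both sexes (11 of each organ, scaled together), 63 of 77 members were higher in liver, 21 of the small and 42 of the large subunit. Another 9 were lower, and 5 (Mrpl41, Mrpl4, Mrps15, Mrps14 and Mrps26) did not pass, with log2 fold changes between 0.00 and 0.14. The test was edgeR's quasi-likelihood test with Benjamini-Hochberg adjustment over 19135 genes, passed at an adjusted p under 0.05. Of all genes tested, 40.2% passed as higher and 43.8% as lower in liver. The median log2 fold change of the members was 0.61, against -0.09 over all genes tested. In 47 members every liver library lay above every WAT library, and in 3 every one lay below; over all genes tested these shares were 25.5% and 26.3%. Leaving out the libraries high in other tissues' markers gave 63 higher and 7 lower, against 39.6% and 43.8% of all genes.

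Mrpl15, a large subunit protein with a bacterial counterpart (chr1:4773206-4785739, GRCm38), had a lowest, median and highest value of 65.8, 73.7 and 75.4 CPM in liver, against 18.98, 20.1 and 21.7 CPM in WAT. All liver libraries lay above all WAT libraries. This was a log2 fold change of 1.83 (SE 0.0411, edgeR adjusted p = 2.50e-34). Mrpl15 overlaps Gm37144 on the same strand, so its value is uncertain. Mrpl14 (chr17:45686322-45698495) had 43.7, 53.4 and 57.0 CPM in liver, against 13.4, 16.1 and 19.8 CPM in WAT, again without overlap (1.72, SE 0.0530). Among small subunit members, the mitochondria-specific Mrps31 had the highest ratio, with 30.1, 35.9 and 42.5 CPM in liver, against 10.6, 11.9 and 15.1 CPM in WAT (1.60, SE 0.0595). Mrpl1, of the stalk on the tRNA exit side, was 1.66 higher on the log2 scale, Mrps5, which takes part in decoding, 1.35 and Mrpl18 1.28.

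Mrps6, a small subunit protein with a bacterial counterpart, went the other way. It had 4.02, 4.55 and 5.70 CPM in liver, against 32.9, 41.5 and 46.9 CPM in WAT, a log2 fold change of -3.06 (SE 0.0994, edgeR adjusted p = 1.16e-28). Its gene (chr16:92058270-92112227) overlaps Slc5a3, a myo-inositol transporter gene, on the same strand. Slc5a3 averaged 7.94 ± 2.90 CPM in liver vehicle libraries and 97.4 ± 35.7 CPM in WAT vehicle libraries (SD, n = 11 each), so the value of Mrps6 is uncertain and the part of Slc5a3 in it was not tested. Mrps25, a mitochondria-specific member, averaged 12.9 ± 1.32 CPM in liver and 18.5 ± 1.70 CPM in WAT without overlap (-0.50, SE 0.0540). Mrpl33, which overlaps Gm43809 on the same strand, averaged 10.2 ± 0.752 CPM in liver and 13.7 ± 1.41 CPM in WAT, also without overlap (-0.42, SE 0.0589). The other 6 lower members, Mrpl54, Mrpl20, Mrps36, Mrps23, Mrps21 and Mrpl40, had overlapping libraries and log2 fold changes between -0.39 and -0.12; Mrpl40 passed in 8 of 22 fits that left out 1 library. In sum, the 77 members reached 2579 ± 45.7 CPM in female and 2891 ± 104 CPM in male vehicle livers, and 1849 ± 148 CPM in female and 1636 ± 70.3 CPM in male vehicle WAT on this scale.

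**Figure D2:**
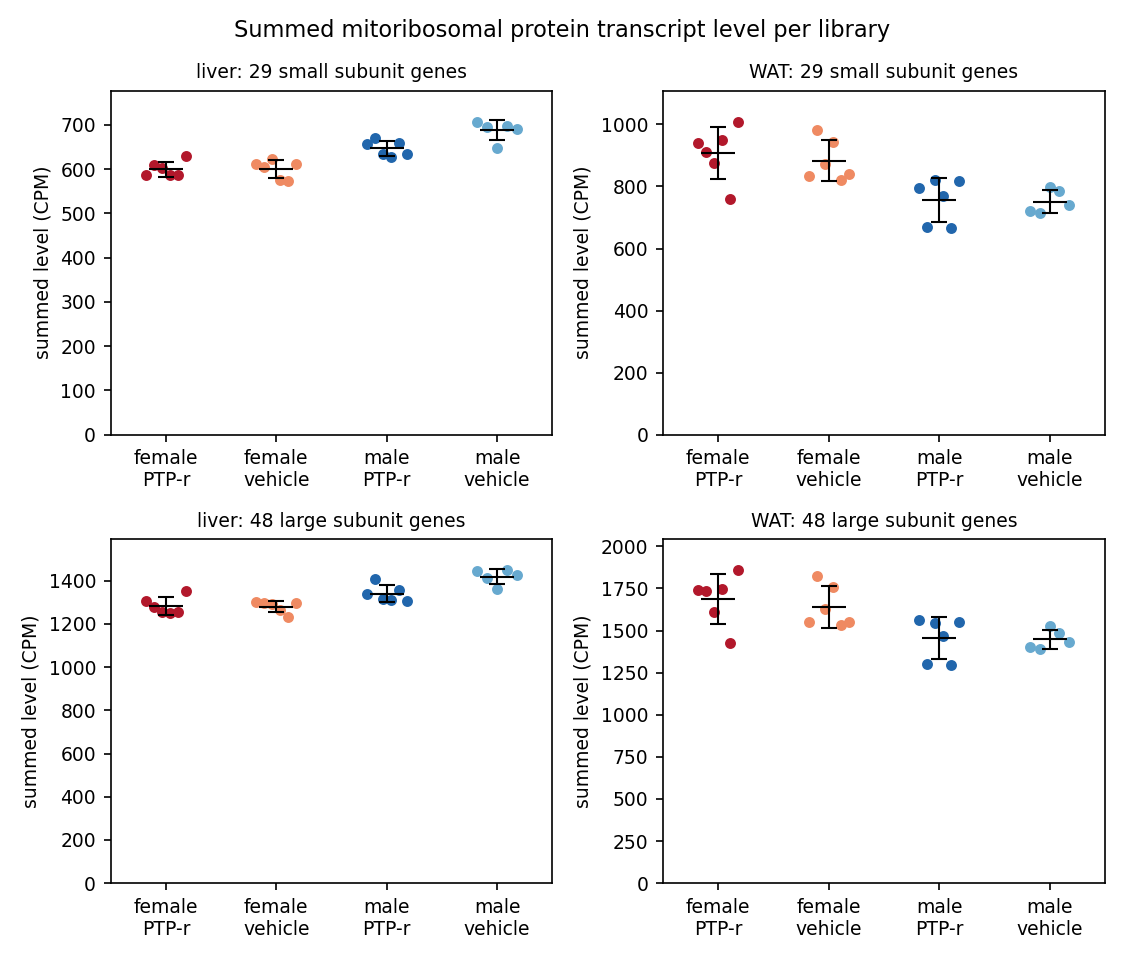
Summed level in CPM of the small subunit (upper row) and large subunit (lower row) members in each library (points) of liver and WAT by sex and treatment, with mean and SD (bars). In liver under vehicle the female libraries lie below the male ones, under PTP-r the liver libraries of the sexes overlap, and in WAT the female means lie above the male ones.

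Female and male mice differed in opposite directions in liver and WAT. In liver under vehicle, 43 of 77 members were lower in females than in males, 19 of 29 in the small and 24 of 48 in the large subunit, and 0 were higher. Over all 15892 genes tested in liver, 19.3% passed as higher and 17.4% as lower in females. The log2 fold change was negative for 70 of 77 members, with a median of -0.18, against 0.02 over all genes tested. In 21 members every female library lay below every male library, against 9.70% of all genes tested. The sum of the small subunit members was 600.1 ± 21.04 CPM in female vehicle livers (n = 6) and 687.7 ± 22.9 CPM in male vehicle livers (n = 5). For the large subunit it was 1281 ± 27.5 CPM in females and 1419 ± 35.1 CPM in males. Without the libraries high in other tissues' markers, 39 members passed, all lower in females, against 17.6% of all genes passing as lower.

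Mrpl20 (chr4:155802878-155809975), a protein that binds the large ribosomal RNA early in assembly in bacteria, had a lowest, median and highest value of 19.5, 20.8 and 21.8 CPM in female vehicle livers, against 29.9, 30.4, 27.7, 28.6 and 28.6 CPM in the 5 male vehicle livers. The female libraries all lay below the male ones. In log2 terms they were lower, at -0.49 (SE 0.0612, edgeR adjusted p = 2.60e-06). Mrpl16 (chr19:11770391-11774960), which lies near the peptidyl transferase centre, had 16.003, 20.8 and 23.2 CPM in female vehicle livers, against 29.97, 31.2, 27.3, 25.6 and 29.1 CPM in male vehicle livers. These groups did not overlap either (-0.49, SE 0.0744, edgeR adjusted p = 2.86e-05).

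The small subunit head protein Mrps10 averaged 24.7 ± 1.78 CPM in female and 32.1 ± 1.92 CPM in male vehicle livers (-0.38, SE 0.0575). Mrps7, also of the head, averaged 48.7 ± 2.80 CPM in females and 60.2 ± 2.93 CPM in males (-0.30, SE 0.0515), and Mrpl2 averaged 35.1 ± 1.63 CPM in females and 42.996 ± 2.02 CPM in males (-0.29, SE 0.0475). In none of these 3 did female and male libraries overlap. Mrps18b, one of several paralogs of a bacterial small subunit protein, averaged 17.3 ± 1.32 CPM in females and 23.1 ± 2.08 CPM in males (-0.42, SE 0.0641), with overlap through male library 9 at 19.5 CPM. Marker sums moved with sex in liver. The 7 macrophage markers, none at 0 in any liver library, summed to between 275.0 and 492.8 CPM in female and between 124.1 and 220.7 CPM in male vehicle livers, and the 6 hepatocyte markers to between 152100 and 170700 CPM in females and between 143200 and 157300 CPM in males. The 5 endothelial markers summed to between 106.1 and 152.2 CPM in females and between 83.6 and 105.8 CPM in males. The 5 brown adipocyte markers summed to between 21.75 and 47.4 CPM in females and between 69.6 and 279.9 CPM in males, made up mostly of Ppargc1a and Elovl3; Ucp1 was at 0 in 19 of the liver libraries. The 8 pancreas markers summed to between 15.1 and 28.4 CPM in females and between 29.6 and 57.1 CPM in males, with medians over the liver libraries of 32.8 CPM for Cela1 and 0 CPM for Prss2. The part of these lists in the result was not tested.

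**Figure D3:**
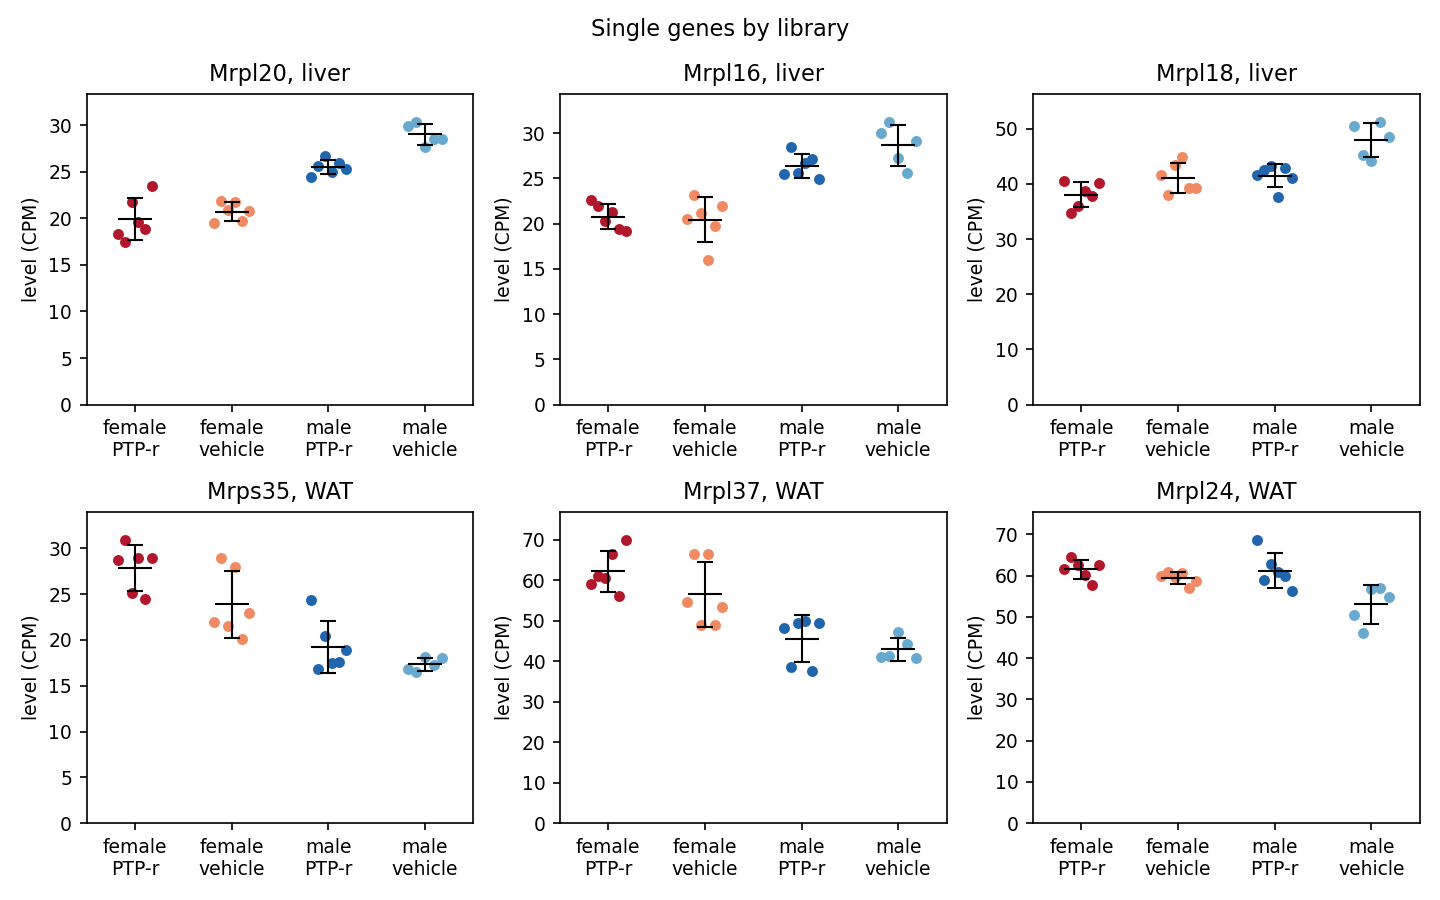
Level in CPM (y axis from 0) of 6 members in each library (points) by sex and treatment, with mean and SD (bars); upper row liver, lower row WAT. Mrpl20 and Mrpl16 are lower in female than in male livers, Mrps35 and Mrpl37 are higher in female than in male WAT, and Mrpl18 in male liver and Mrpl24 in WAT show the treatment differences given in the text.

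In WAT under vehicle, 25 of 77 members were higher in females than in males, 11 of 29 in the small and 14 of 48 in the large subunit, and 0 were lower. Over all 17765 genes tested in WAT, 13.6% passed as higher and 13.3% as lower in females. The log2 fold change was positive for 73 of 77 members, with a median of 0.19, against 0.03 over all genes tested. In 15 members every female library lay above every male library, against 9.22% of all genes tested. The small subunit members summed to 882.6 ± 65.7 CPM in female vehicle WAT (n = 6) and 751.4 ± 37.3 CPM in male vehicle WAT (n = 5), and the large subunit members to 1641 ± 124 CPM in females and 1447 ± 57.6 CPM in males. Only 9 members (11.7%) passed without the libraries high in other tissues' markers, against 8.53% of all genes passing as higher, so the share lay near the background there, while the median was 0.19. Leaving out 1 library gave 12 without male vehicle library 3, 15 without male vehicle library 4, female vehicle library 3 or female vehicle library 7, and 16 without male vehicle library 12.

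Mrps35 (chr6:147042764-147073991), a mitochondria-specific small subunit protein, had a lowest, median and highest value of 20.1, 22.4 and 28.9 CPM in female vehicle WAT, against 16.8, 16.5, 18.1, 17.3 and 17.98 CPM in the 5 male vehicle libraries. All female libraries lay above all male ones. Their log2 fold change was 0.46 (SE 0.101, edgeR adjusted p = 0.00218). Mrpl37 (chr4:107055874-107066868), a mitochondria-specific large subunit protein, had 49.0, 54.0 and 66.6 CPM in female vehicle WAT, against 41.02, 41.3, 47.1, 44.4 and 40.8 CPM in male vehicle WAT. These too did not overlap (0.40, SE 0.0950, edgeR adjusted p = 0.00398). Mrps17, of the small subunit body, differed least in size among the 6 smallest p-values but with the smallest one, at 41.9 ± 3.20 CPM in females and 34.97 ± 1.84 CPM in males (0.26, SE 0.0575, edgeR adjusted p = 0.00215).

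Mrpl39, whose sequence resembles a tRNA synthetase, averaged 31.4 ± 3.92 CPM in female and 24.3 ± 1.12 CPM in male vehicle WAT (0.37, SE 0.0958). Mrpl9 averaged 41.96 ± 5.88 CPM in females and 33.5 ± 0.618 CPM in males (0.32, SE 0.0834), and Mrps30, the partner of Mrpl37 in the large subunit, 38.7 ± 4.72 CPM in females and 30.1 ± 3.00 CPM in males (0.36, SE 0.0938). Mrpl39 and Mrpl9 did not overlap between the sexes, and Mrps30 did. Without the libraries high in other tissues' markers, the edgeR adjusted p was 0.0557 for Mrpl9 and 0.0510 for Mrps30. Several marker sums moved with sex in WAT. Female vehicle WAT held between 417.7 and 956.9 CPM of the 7 macrophage markers, against between 907.9 and 2260 CPM in males; Clec4f, which marks Kupffer cells, was at 0 in 6 of the WAT libraries. The 6 adipocyte markers summed to between 17020 and 21960 CPM in females and between 14030 and 17090 CPM in males, and the 4 mesothelial markers to between 48.8 and 260.2 CPM in females and between 26.2 and 66.7 CPM in males. Brown adipocyte markers, of which Ucp1 and Elovl3 were each at 0 in 2 WAT libraries, summed to between 3.15 and 6.67 CPM in females and between 6.05 and 8.99 CPM in males. The 6 hepatocyte markers summed to between 712.1 and 1982 CPM in females and between 145.2 and 485.2 CPM in males, and Cyp2e1 alone had a median of 902.9 CPM over the WAT libraries. The 8 pancreas markers summed to between 7.91 and 28.3 CPM in females and between 39.4 and 43.3 CPM in males, with a median of 25.8 CPM for Cela1 and 0 CPM for Prss2, Pnlip, Ctrb1, Cel, Cela2a and Amy2b over the WAT libraries. The 6 epididymis markers summed to between 0 and 0.0282 CPM in females and between 0.870 and 43.4 CPM in males. The part of these lists in the sex difference was not tested. Since the depot is not named and may not be the same in both sexes, sex and depot cannot be told apart in WAT.

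**Figure D4:**
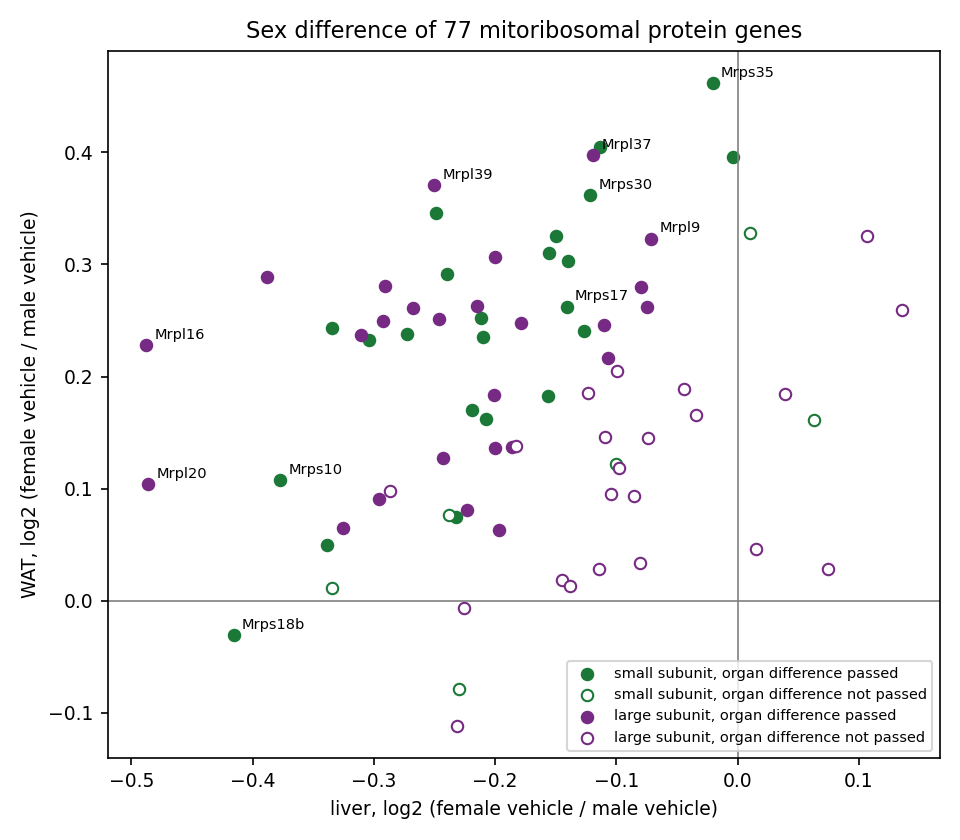
Log2 ratio of female to male vehicle level in liver (x axis) and in WAT (y axis) for 77 members (points, coloured by subunit; filled where the liver ratio and the WAT ratio differed at an adjusted p under 0.05). Of the 77 points, 66 lie in the upper left part, lower in female liver and higher in female WAT.

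The difference between the organs was tested directly, in a comparison added after seeing the data. Under vehicle, the liver sex difference was below the WAT sex difference in 49 of 77 members, 23 of 29 in the small and 26 of 48 in the large subunit, and above it in 0. Of all 19135 genes tested, 11.5% passed in this direction and 15.8% in the other. Every small subunit member and 47 of 48 large subunit members had a negative value, with a median of -0.35, against 0.06 over all genes tested. Without the libraries high in other tissues' markers, 41 members passed, all negative, against 10.2% of all genes. In the plot of liver against WAT sex differences, 66 of 77 members were lower in female liver and higher in female WAT by sign alone. In both organs 13 members passed: Mrps5, Mrps17, Mrps21, Mrps24, Mrps30, Mrps34, Mrpl21, Mrpl30, Mrpl34, Mrpl37, Mrpl38, Mrpl39 and Mrpl49, which are 30.2% of the 43 in liver and 52.0% of the 25 in WAT. Of the 14821 genes tested in both organs, 437 (2.95%) passed as lower in female liver and higher in female WAT, against 16.9% of the members; these 437 are 16.9% of all genes lower in female liver and 20.9% of those higher in female WAT. Mrps17, Mrps24, Mrps34 and Mrpl39 passed in both organs in each fit that left out 1 library, and the other 9 lost a call in at least 1 such fit. Mrps24 overlaps Urgcp and Mrps34 overlaps Nme3 on the same strand, so the values of both members are uncertain. Urgcp averaged 38.9 ± 4.18 CPM in liver and 33.1 ± 3.81 CPM in WAT vehicle libraries, and its part was not tested. Mrpl39 had a liver difference of -0.25 and a WAT difference of 0.37, and the difference between these was -0.60 (SE 0.110, edgeR adjusted p = 6.29e-05). In values, it averaged 32.7 ± 1.58 CPM in female and 38.9 ± 2.44 CPM in male vehicle livers.

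PTP-r libraries, which are a separate set, gave the same directions. In liver, 17 members were lower in females given PTP-r than in males given PTP-r and 0 were higher, against 11.9% of all genes passing as lower and 9.17% as higher; 15 of these 17 were among the 43 under vehicle. Leaving out the libraries high in other tissues' markers gave 17, against 10.2% of all genes passing as lower. In WAT, 41 members were higher in females and 0 lower, against 14.7% of all genes passing as higher and 18.8% as lower, and 23 of the 25 found under vehicle were among them. Without those libraries 16 passed in WAT, against 9.81% of all genes passing as higher. The share of all sex-different genes that repeat between vehicle and PTP-r was not computed. The liver difference was below the WAT difference in 39 members and above it in 0. Of all genes, 10.6% passed in this direction and 14.4% in the other. Without the libraries high in other tissues' markers it was below in 30 members, against 8.47% of all genes. Mrps27, a pentatricopeptide repeat protein of the small subunit, had the lowest value, -0.78 (SE 0.138, edgeR adjusted p = 5.30e-05).

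The ratio between the subunit sums, with subunits taken by symbol, also differed by organ and sex, as a description without a test. The small subunit sum holds Mrps6, whose value is uncertain and much higher in WAT, and Mrps30, Mrps18a and Mrps36, whose proteins lie elsewhere. Ratios without them were not computed, so a balance between the subunits themselves is not shown. The sum of large over the sum of small subunit members was 2.14 ± 0.0476 in female PTP-r, 2.14 ± 0.0411 in female vehicle, 2.07 ± 0.0238 in male PTP-r and 2.06 ± 0.0268 in male vehicle livers. In WAT it was 1.86 ± 0.0253, 1.86 ± 0.00989, 1.92 ± 0.0324 and 1.93 ± 0.0232 in the same order of groups. The ratio was thus higher in female than in male liver and lower in female than in male WAT, with PTP-r and vehicle groups of 1 sex within their SD of each other.

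**Figure D5:**
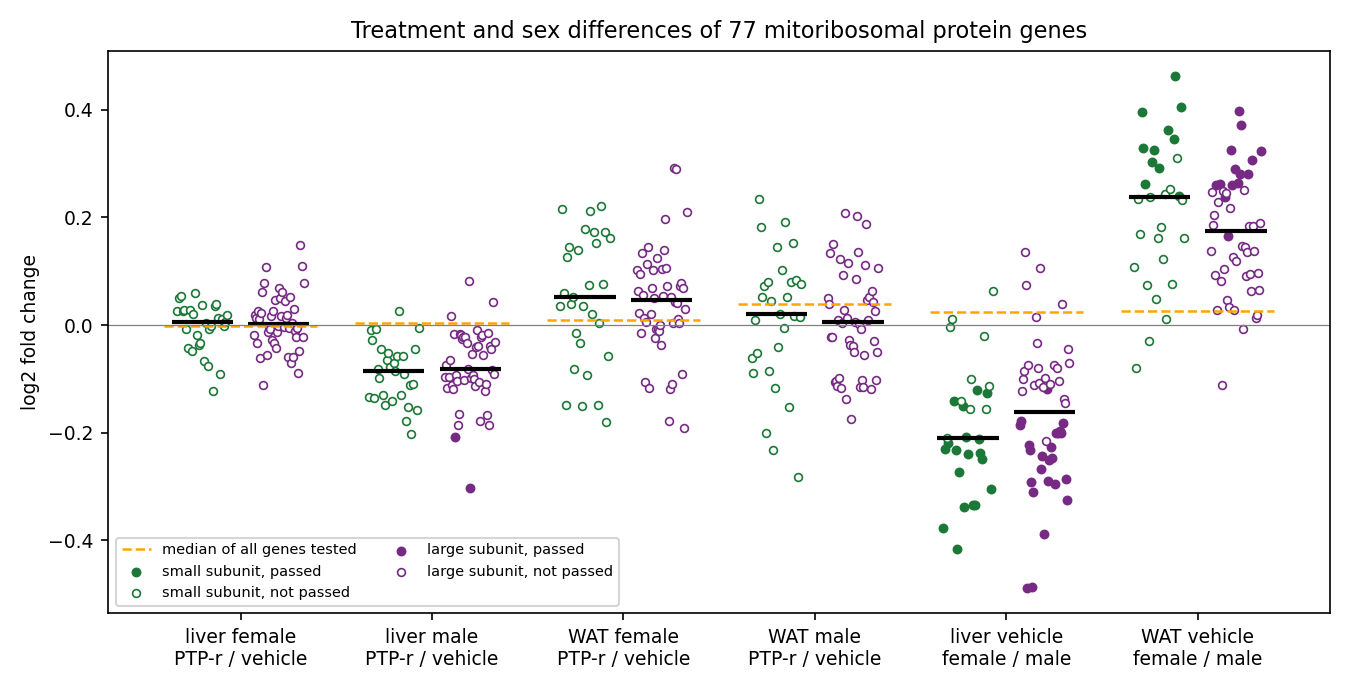
Log2 fold change (y axis) of each small subunit (green) and large subunit (purple) member in the 4 treatment comparisons and the 2 vehicle sex comparisons; filled points passed, black bars are medians of each subunit, and the dashed line is the median of all genes tested. Few points are filled in the treatment comparisons, where the medians lie between -0.09 and 0.05.

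PTP-r changed few members. In female livers 0 of 77 passed with edgeR (3 at an unadjusted p under 0.05; 0 with DESeq2 and 0 with limma voom), against 0.164% of all genes tested, and the median log2 fold change over vehicle was 0.00. The count was also 0 without the libraries high in other tissues' markers. Counts at an unadjusted p, here and below, are given without the share of all genes. In male livers 2 members fell and 0 rose, against 2.45% of all genes passing as lower and 5.23% as higher. When the libraries high in other tissues' markers were left out, 3 fell, against 2.79% of all genes. The log2 fold change was negative in 73 of 77 members, with a median of -0.08, against 0.00 over all genes tested. The small subunit sum was 646.7 ± 17.2 CPM in male PTP-r and 687.7 ± 22.9 CPM in male vehicle livers, and the large subunit sum 1340 ± 39.1 CPM in male PTP-r livers and 1419 ± 35.1 CPM in male vehicle livers. The difference between the female and the male effect passed in 0 members with edgeR, against 0.107% of all genes. At an unadjusted p under 0.05 there were 6, and DESeq2 and limma voom passed 0 each. For no single member is the effect thus shown to differ between the sexes. By sign alone, the female effect minus the male effect was positive in 67 of 77 members, with a median of 0.08, against -0.01 over all genes tested. Whether the members as a set differ was not tested. Endothelial markers (5, none at 0 in any liver library) summed to between 52.9 and 80.0 CPM in male PTP-r livers and between 83.6 and 105.8 CPM in male vehicle livers, and the 7 macrophage markers to between 178.5 and 381.9 CPM in male PTP-r livers and between 124.1 and 220.7 CPM in male vehicle livers. The 6 T cell markers summed to between 4.42 and 10.1 CPM in male PTP-r livers and between 2.55 and 3.53 CPM in male vehicle livers. The marker ranges in this paragraph cover male livers alone, and other marker lists are left out. They therefore do not tie a marker shift to the fall of the members in males. A like shift in female livers, where the members' median was 0.00, is not excluded by them. The part of these cell types was not tested.

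Mrpl18 (chr17:12911349-12916345), whose human protein has been linked to import of ribosomal RNA into mitochondria, fell in male liver. It had a lowest, median and highest value of 37.7, 42.05 and 43.2 CPM with PTP-r, against 50.5, 45.1, 44.2, 51.2 and 48.5 CPM in the 5 vehicle libraries. The groups did not overlap. As a log2 fold change this was -0.21 (SE 0.0561, edgeR adjusted p = 0.0228). In females it averaged 38.01 ± 2.28 CPM in PTP-r livers and 41.1 ± 2.77 CPM in vehicle livers. Over both sexes it fell, at a log2 fold change of -0.16 (SE 0.0388, edgeR adjusted p = 0.0116). It was the only member of 77 to pass as a mean of both sexes, against 2.40% of all genes passing as lower and 5.18% as higher. Without the libraries high in other tissues' markers 3 members passed as lower, against 2.03% of all genes. Mrpl34 (chr8:71464959-71465747) had 16.05, 17.2 and 19.7 CPM in male PTP-r livers, against 23.6, 24.3, 18.8, 20.7 and 21.1 CPM in male vehicle livers. It overlapped through vehicle library 9 at 18.8 CPM (-0.30, SE 0.0853, edgeR adjusted p = 0.0292). Mrpl20 averaged 25.5 ± 0.759 CPM in male PTP-r livers and 29.01 ± 1.11 CPM in male vehicle livers without overlap, and missed the threshold at an edgeR adjusted p of 0.0636.

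These calls depended on single libraries. Of the members in male liver, 0 passed without vehicle library 3 or PTP-r library 6, 1 without vehicle library 4 or 10 or PTP-r library 7 or 11, and 6 without vehicle library 9. Mrpl18 in male liver passed in 8 of 11 such fits, losing its call without vehicle library 3, vehicle library 10 or PTP-r library 6 (edgeR adjusted p between 0.0583 and 0.0661). Mrpl34 passed in 5 of 11; it did not pass without vehicle library 3 or 4 or without PTP-r library 5, 6, 7 or 11 (edgeR adjusted p between 0.0552 and 0.0935). As a mean of both sexes Mrpl18 passed in 23 of 23, and the count was 2 without female PTP-r library 1 or 11, female vehicle library 7 or male vehicle library 9.

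In WAT, 0 of 77 members passed in females with edgeR, with 10 at an unadjusted p under 0.05, and 0 of all genes (0%) passed. DESeq2 passed 0 members and limma voom 1. Over all genes DESeq2 passed 307 as higher and 287 as lower in females, and voom 172 and 199. In males 0 passed with edgeR, with 4 at an unadjusted p under 0.05, against 0.873% of all genes. DESeq2 and limma voom passed 1 member each. For males the counts over all genes were 679 higher and 456 lower with DESeq2, and 615 and 505 with voom. Over both sexes 1 member, Mrpl24, rose, against 3.65% of all genes passing as higher and 3.43% as lower, and the members' median log2 fold change was 0.03, as over all genes tested. Mrpl24 (chr3:87919506-87923672), which lies near the exit tunnel, had 57.8, 62.1 and 64.6 CPM in female PTP-r and 56.9, 59.9 and 60.8 CPM in female vehicle WAT. In males it had 56.3, 60.4 and 68.6 CPM with PTP-r, against 50.4, 46.1, 56.8, 57.0 and 54.8 CPM with vehicle. The groups overlapped in both sexes, and Mrpl24 passed over both sexes at a log2 fold change of 0.13 (SE 0.0381, edgeR adjusted p = 0.0447). It passed in 8 of 23 fits that left out 1 library and lost its call (edgeR adjusted p between 0.0523 and 0.0888) without female PTP-r library 1, 4, 5 or 11, female vehicle library 2, 6, 10 or 12, male PTP-r library 1, 5, 6 or 7, or male vehicle library 3, 4 or 12. The count was 5 without female vehicle library 3, 4 without female vehicle library 7 or male PTP-r library 2, 3 without female PTP-r library 8 and 2 without male PTP-r library 11. Without the libraries high in other tissues' markers its adjusted p was 0.333 and 0 members passed; female PTP-r libraries 1 and 4 held 375.7 and 422.8 CPM of brown adipocyte markers, whose part was not tested. The female effect minus the male effect passed in 0 members with edgeR (2 at an unadjusted p under 0.05; 0 with DESeq2 and 0 with limma voom), against 0% of all genes.

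The liver effect of PTP-r was below its WAT effect in 2 members, against 2.40% of all genes passing as lower and 2.99% as higher. Mrpl45, which anchors the mitochondrial ribosome to the inner membrane, had a difference of -0.27 (SE 0.0773, edgeR adjusted p = 0.0333), and Mrps35 of -0.25 (edgeR adjusted p = 0.0466). In WAT, Mrpl45 averaged 36.2 ± 4.79 CPM in PTP-r and 29.5 ± 2.88 CPM in vehicle females, and 26.3 ± 3.34 CPM in PTP-r and 24.3 ± 0.788 CPM in vehicle males. Mrpl45 kept its call in 41 of 46 fits that left out 1 library; it lost it without liver male vehicle library 4, WAT female PTP-r library 4, WAT female vehicle library 10 or 12 or WAT male vehicle library 4. Mrps35 kept its call in 14 of 46. These were the fits without liver female PTP-r library 4, 9 or 11, liver male PTP-r library 2, liver male vehicle library 4 or 9, WAT female vehicle library 3 or 7, WAT female PTP-r library 5 or 9, WAT male PTP-r library 2, 6 or 7, or WAT male vehicle library 9. The count was 9 without WAT female vehicle library 3 or WAT male PTP-r library 2, 8 without WAT male PTP-r library 7, 7 without WAT female PTP-r library 9, 5 without liver female PTP-r library 11 or WAT female vehicle library 7, and 4 without WAT female PTP-r library 5. It was 0 without WAT female PTP-r library 4, WAT female vehicle library 10 or WAT male vehicle library 4. Neither member passed without the libraries high in other tissues' markers.

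Of 8 members picked for a link to inherited mitochondrial disease in people or, for Mrpl58, for releasing stalled chains from the ribosome, all 8 were higher in liver than in WAT and 0 passed for PTP-r as a mean of both sexes in either organ. In the vehicle sex comparison of liver, Mrps22 (-0.34, SE 0.0653), Mrps34 (-0.25, SE 0.0558) and Mrpl44 (-0.20, SE 0.0721) were lower in females, and Mrps2, Mrps16, Mrpl3, Mrpl12 and Mrpl58 did not pass, with values between -0.14 and 0.11. In WAT, Mrps2 (0.30, SE 0.102), Mrps16 (0.33, SE 0.0920), Mrps34 (0.35, SE 0.0947) and Mrpl3 (0.33, SE 0.0915) were higher in females, and Mrps22, Mrpl12, Mrpl44 and Mrpl58 did not pass, with values between 0.05 and 0.20. Mrpl44 in liver and Mrps2 in WAT each passed in 5 of 11 fits that left out 1 library. Without the libraries high in other tissues' markers the edgeR adjusted p was 0.0724 for Mrpl44 in liver, and 0.153 for Mrps2, 0.0632 for Mrps34 and 0.100 for Mrpl3 in WAT. Mrps34 overlaps Nme3 on the same strand, so its value is uncertain. No reads were counted on Nme3 in any library, and the part of Nme3 in Mrps34 was not tested. Over 30 alternative fits the liver over WAT value of Mrps34 ranged from 0.33 to 0.61. Its liver sex call was lost in 1 of 19 alternative fits. Mrpl12 averaged 124 ± 7.42 CPM in liver and 43.6 ± 7.30 CPM in WAT vehicle libraries (1.52, SE 0.0667).

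Genes that serve the mitochondrial ribosome were described by lists beside the members. The counts are to be read against 17.4% of all genes lower in female liver and 13.6% higher in female WAT under vehicle. Of 29 assembly factors, 9 were lower and 0 higher in female than in male vehicle liver, and 12 were higher and 0 lower in female WAT. Lrpprc, which stabilises mitochondrial messenger RNA, had -0.34 (SE 0.0527) in liver, and Noa1, a GTPase of ribosome assembly, had 0.44 (SE 0.0851) in WAT. Of 17 genes listed as translation factors, 6 were lower in female liver, among them the elongation factor Gfm1 at -0.40 (SE 0.0617). In female WAT 9 were higher, among them the ribosome recycling factor Mrrf at 0.42 (SE 0.0843). Of 22 mitochondrial aminoacyl-tRNA synthetase genes, 8 were lower in female liver and 11 higher in female WAT; Iars2, the isoleucyl enzyme, passed in both, at -0.32 (SE 0.0579) in liver and 0.36 (SE 0.0962) in WAT. The 5 mitochondrial ribosomal proteins found under other symbols gave 3 lower in liver and 2 higher in WAT, Ptcd3 passing in both.

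The proteins that this ribosome makes, and their partners, were set beside them. Of 13 genes of mitochondrial DNA that encode proteins, 6 were lower in female liver and 7 higher in female WAT under vehicle. Nuclear respiratory chain subunits gave 42 lower and 1 higher of 78 in female liver, and 55 higher and 0 lower of 81 in female WAT. Cytosolic ribosomal proteins gave 4 higher and 6 lower of 76 in female liver, with a median of -0.01, and 0 of 76 passed in WAT (0 higher, 0 lower, median -0.01). Of 15 genes chosen as measures of mitochondrial mass, 6 were lower in female liver, and 8 were higher and 2 lower in female WAT. With PTP-r in male liver, 14 of 78 nuclear respiratory chain subunits were lower. So were 2 of 17 genes listed as translation factors (Gfm1 and Letm1, the latter an inner membrane protein). Also lower were 1 of 29 assembly factors (C1qbp) and 1 of 22 synthetases (Aars2). In these lists 0 genes were higher. Of all genes, 2.45% passed as lower and 5.23% as higher.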

How the data were processed

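The deposited files hold counts, whole reads per gene, that the authors made with STAR 2.4.0i, HTSeq and mm10, per the submitters' processing notes; roles of the tools and the annotation release: not given in the sources used here. Column 4, which held 96.0% to 96.5% of stranded reads, was used; totals that name no gene (18.4% to 28.9% of a library) were left out. Identifiers were joined to GENCODE M21, of which 55227 of 55487 matched. In R 4.3.3, edgeR 4.0.16 fitted the 4 groups of an organ together, or all 8 for organ comparisons (quasi-likelihood test in both directions, TMM scaling, minimum count 10, minimum total 15), with Benjamini-Hochberg adjustment over all genes and a threshold of 0.05. DESeq2 1.42.0, limma 3.58.1 (voom with quality weights), other scaling, no filter, unstranded counts, a replicate block, title numbers in low and high sets, and leaving out libraries were alternatives. The code was tested on simulated data. No pair of libraries of 1 group agreed within sampling noise. Named members were those past the threshold (at most 6 with the smallest p in each direction, else 3), the 3 highest and 3 lowest per kilobase, the extremes of the organ comparison and 8 fixed members; others named were chosen after their values were seen. Members and lists were chosen with earlier results of these data known. Sex differences under PTP-r and between organs were added after seeing the data. Counts of reads are not independent molecules, and no variant or sequence was read from the libraries.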

Additional observations from a re-analysis of the deposited data

Results flagged for a closer look

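In groups of 5 or 6 libraries, the highest or lowest library was set against the others for 22 quantities in 8 groups, 176 tests in all, of which 11 stood apart by Dixon's criterion (a critical ratio of 0.71 for 5 libraries and 0.625 for 6); chance gives about 1 in 20. In male vehicle liver, library 9 had a small subunit sum of 648.0 CPM, against between 691.1 and 706.9 CPM in the others, and an Mrps18b level of 19.5 CPM, against between 23.3 and 24.6 CPM. In male PTP-r liver, library 6 had 37.7 CPM of Mrpl18, against between 41.1 and 43.2 CPM. In female PTP-r liver, library 1 had 21.5 CPM of Mrpl34, against between 14.6 and 16.998 CPM, and library 8 had 28.3 CPM of Mrpl1, against between 23.4 and 25.2 CPM. In female vehicle liver, library 2 had 49.5 CPM of Mrpl15, against between 53.4 and 55.2 CPM, and library 7 had 21.5 CPM of Mrps31, against between 24.9 and 26.5 CPM.

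In WAT, female PTP-r library 9 had 15.4 CPM of Mrps18b, against between 21.3 and 23.4 CPM in the others. Male PTP-r library 1 was high in Mrpl14 at 28.04 CPM, against between 18.5 and 21.9 CPM, and in Mrpl39 at 35.5 CPM, against between 22.3 and 26.7 CPM. Male vehicle library 12 had 22.3 CPM of Mrpl39, against between 24.6 and 25.0 CPM. Of these libraries, liver female PTP-r library 1 and WAT male PTP-r library 1 were among those high in markers of other tissues.

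Effects that differed between organs by edgeR's test of the difference itself (Benjamini-Hochberg adjusted) were those of PTP-r on Mrpl45 (-0.27) and Mrps35 (-0.25), liver minus WAT on the log2 scale. The sex difference under vehicle differed for Mrpl39 (-0.60), Mrps17 (-0.38) and Mrpl30 (-0.51), and the sex difference under PTP-r for Mrps27 (-0.78), Mrpl45 (-0.58) and Mrps31 (-0.59).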

How the results depend on the processing

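Under limma voom, DESeq2, other scaling, no filter, unstranded counts, title numbers in low and high sets, the replicate block and leaving out the libraries high in other tissues' markers, the members' median kept its sign in the sex and organ comparisons, with ranges of -0.19 to -0.17 in liver and 0.17 to 0.19 in WAT under vehicle and 0.55 to 0.64 for liver over WAT. In some of the PTP-r comparisons, where it lies near 0, it changed sign. As a mean of the sexes in WAT (0.03) it was -0.03 with the replicate block. For WAT males (0.01) it was -0.05 with the block, -0.02 with no filter and -0.0014 with DESeq2. In liver females (0.00) it was -0.0029 with no filter, -0.0066 with voom and -0.015 without those libraries. Over 122 pairs of a named member and a comparison, 2708 values kept direction and side of the threshold, 214 lost and 19 gained a call, and 25 changed sign. The 25 belong to 3 pairs that did not pass and lie near 0. Mrps16 in female over male vehicle liver (0.01) was -0.0013 with no filter, -0.00198 with title numbers in low and high sets, -0.028 with the block, and -0.0257 to 0.0434 with 1 library left out. For liver over WAT, Mrps14 (0.04) was -0.0235 with DESeq2 and -0.0234 with its size factors in edgeR, and Mrps26 (0.00) was -0.0574 with DESeq2, -0.0574 with its size factors, -0.01198 with no filter, -0.0225 with unstranded counts, -0.000125 with the block, -0.0049 without the libraries high in other tissues' markers, and -0.0225 to 0.0176 with 1 library left out. The count in male liver with PTP-r (2) was 6 with DESeq2, 6 with voom, 4 with DESeq2 size factors in edgeR and 5 with unstranded counts. As a mean of the sexes in liver (1) it was 4 with voom, 2 with title numbers in low and high sets and 3 without the libraries high in other tissues' markers. In females over males given PTP-r it was 26 with voom and 10 with no filter in liver (17), and 16 without the libraries high in other tissues' markers in WAT (41). In WAT with PTP-r it was 1 with voom in females (0), 1 with DESeq2 and 1 with voom in males (0), and, as a mean of the sexes (1), 3 with DESeq2, 10 with voom, and 0 with DESeq2 size factors in edgeR, no filter, title numbers in low and high sets or without the libraries high in other tissues' markers. In WAT under vehicle (25) it was 38 with voom, 15 with no filter and 9 without the libraries high in other tissues' markers, and for the liver effect minus the WAT effect (2) it was 15 with voom and 0 with DESeq2 size factors in edgeR, no filter or without those libraries. Counts over all genes moved too. Those lower in male liver with PTP-r numbered 390 in the main fit, 634 with DESeq2 and 628 with voom. Genes higher in female WAT under vehicle numbered 2420 in the main fit and 3526 with voom. For the liver effect minus the WAT effect, 572 were higher and 460 lower in the main fit, and 877 and 841 with voom. As a mean of the sexes in WAT, PTP-r gave 649 higher and 609 lower in the main fit, and 1102 and 997 with voom. In liver that mean gave 824 and 381 in the main fit, and 1013 and 588 with voom. The cause was not tested, except that leaving out libraries leaves fewer samples.

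Leaving out 1 library at a time gave 0 to 6 for PTP-r in male liver, 1 to 2 as a mean of the sexes in liver, 0 to 5 as a mean of the sexes in WAT and 0 to 9 for liver effect minus WAT effect. For females over males it gave 35 to 45 (vehicle) and 12 to 21 (PTP-r) in liver and 12 to 26 (vehicle) and 28 to 49 (PTP-r) in WAT, for liver over WAT 71 to 73, and for the sex difference between organs 41 to 53 (vehicle) and 31 to 53 (PTP-r). The replicate block gave 2 for the mean of the sexes in liver, 0 for that in WAT, 16 for the WAT vehicle sex comparison and 1 for the liver effect minus the WAT effect, where both Mrpl45 (edgeR adjusted p = 0.0669) and Mrps35 (0.0551) lost their calls and another member passed. Under the block Mrpl34 in male liver (0.114) and Mrpl24 in WAT (0.2002) also lost theirs, and Mrpl18 in male liver did not (0.0132). Liver and WAT libraries with the same title number share sex and treatment in the labels. They deviated together by a correlation between -0.07 and 0.16 (23 pairs, 4 over 0.1, 8 best with their own number). Such correlations cannot decide whether they come from the same mouse. The main fits did not treat them as pairs, and the replicate block is the alternative that does for the organ comparisons. Mrpl53 was not tested, having at most 2 reads in a library.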
